A study of Mus musculus with 42 samples.

Results

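Adenylyl cyclases make the second messenger cyclic AMP from ATP, and mammals carry 10 genes for them. The 8 described here, Adcy1, Adcy2, Adcy3, Adcy5, Adcy6, Adcy7, Adcy8 and Adcy9, were chosen by symbol out of 54232 genes in the deposited count table, and all 8 were found. They were proposed with earlier results of these libraries known, the striatal content of the libraries among them, so their levels and their relation to striatal markers are given as a description with no test. Adcy4 and Adcy10, the remaining family members, are outside the list. The study sequenced mRNA of mouse brain in 42 libraries, of which 20 carry the label cerebellum and 22 the label hippocampus. For 12 weeks mice ate control chow (11% fat) or a western diet (42% fat), each with or without NaKtide, a peptide from the Na,K-ATPase that blocks signalling of this sodium pump through the kinase Src. NaKtide came from a transgene induced by doxycycline at 300 mg/kg in the diet, and its effect cannot be told apart from that of carrying the transgene or taking the drug. Doxycycline in the remaining mice, strain, age and the promoter of the transgene are not stated in the labels. The title of the series names the adipocyte. Each of the 4 cerebellum groups held 5 libraries. The hippocampus label held 6 control, 5 control NaKtide, 5 western and 6 western NaKtide libraries.

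Membrane adenylyl cyclases receive signals from receptors through G proteins: Gs and its striatal relative Golf stimulate them, and Gi inhibits several of them. They differ in their second input. Adcy1 and Adcy8 are stimulated by calcium and calmodulin and are studied in synaptic plasticity, and Adcy3 is the cyclase of olfactory neurons and of neuronal primary cilia. Adcy2 and Adcy7 respond to G protein beta-gamma subunits, Adcy5 and Adcy6 are inhibited by calcium, and Adcy9 is little activated by forskolin. Adcy5 is the main cyclase of striatal medium spiny neurons, where it acts below dopamine and adenosine receptors.

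Library totals ran from 4669374 to 9521002 counts. No label ties a library to an animal of its own, and p-values therefore reflect only the spread between these libraries, which may be technical. Hippocampus control 5 and 6 had nearly equal marker scores (defined below): striatum 6.901 and 6.906, pyramidal neuron 4.737 and 4.744, choroid plexus 2.95 and 2.965. Both held Xist transcripts. Whether they come from 1 animal is not stated in the labels. They are counted as separate libraries except in an alternative fit that summed them. Markers of the labelled regions did not set the labels clearly apart. Gabra6, a receptor subunit of cerebellar granule cells, had a median of 0.135 CPM (counts scaled to the library total) under the cerebellum label (highest 201). It was at 0 counts in 8 of those 20 libraries. Under the hippocampus label its median was 0.051 CPM (highest 24.3), with 11 of 22 at 0. Other cerebellar markers were not low under the cerebellum label. Medians there were 110 CPM for Calb1 and 36.2 for Reln, against 119 and 35.4 under the hippocampus label. Among pyramidal neuron markers, Neurod2 had a median of 80.6 CPM under the hippocampus label and 67.1 under the cerebellum label. Spink8, a lower one, had 2.22 and 1.40. Drd2, a dopamine receptor of striatal neurons, had a median of 24.6 CPM (highest 172) under the cerebellum label and of 13.5 CPM (highest 201) under the hippocampus label. Regions are therefore named below only as the labels name them. The samples are bulk tissue, so fewer cells of a type and less RNA per cell cannot be told apart in any result below.

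Levels are given in FPKM, which divides by gene length, so that members can be compared. Adcy2, Adcy1 and Adcy5 were the abundant members, with medians of 22.9, 19.5 and 19.0 FPKM over the 42 libraries. Adcy6 (3.39), Adcy3 (2.52), Adcy8 (2.41), Adcy9 (1.21) and Adcy7 (0.550) were lower, in this order. Outside the list, Adcy4 had a median of 0.778 FPKM, and Adcy10, the soluble cyclase, had 0 to 8 counts in any library. Adcy1, Adcy2 and Adcy5 together made 72.2% to 94.0% of the summed FPKM of the 8 genes in every library. Which of them led changed from library to library: Adcy5 was highest in 19 libraries, Adcy2 in 14 and Adcy1 in 9. In build GRCm38 (GENCODE M21) the members called below lie at chr11:7063489-7178506 (Adcy1, ENSMUSG00000020431), chr12:4133103-4213525 (Adcy3, ENSMUSG00000020654), chr16:35154877-35305738 (Adcy5, ENSMUSG00000022840) and chr16:4287529-4420498 (Adcy9, ENSMUSG00000005580). Depth limits the lower members, since Adcy7 had 7 to 119 counts per library, Adcy9 7 to 346 and Adcy3 14 to 301, against 179 to 5858 for Adcy1.

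**Figure D1:**
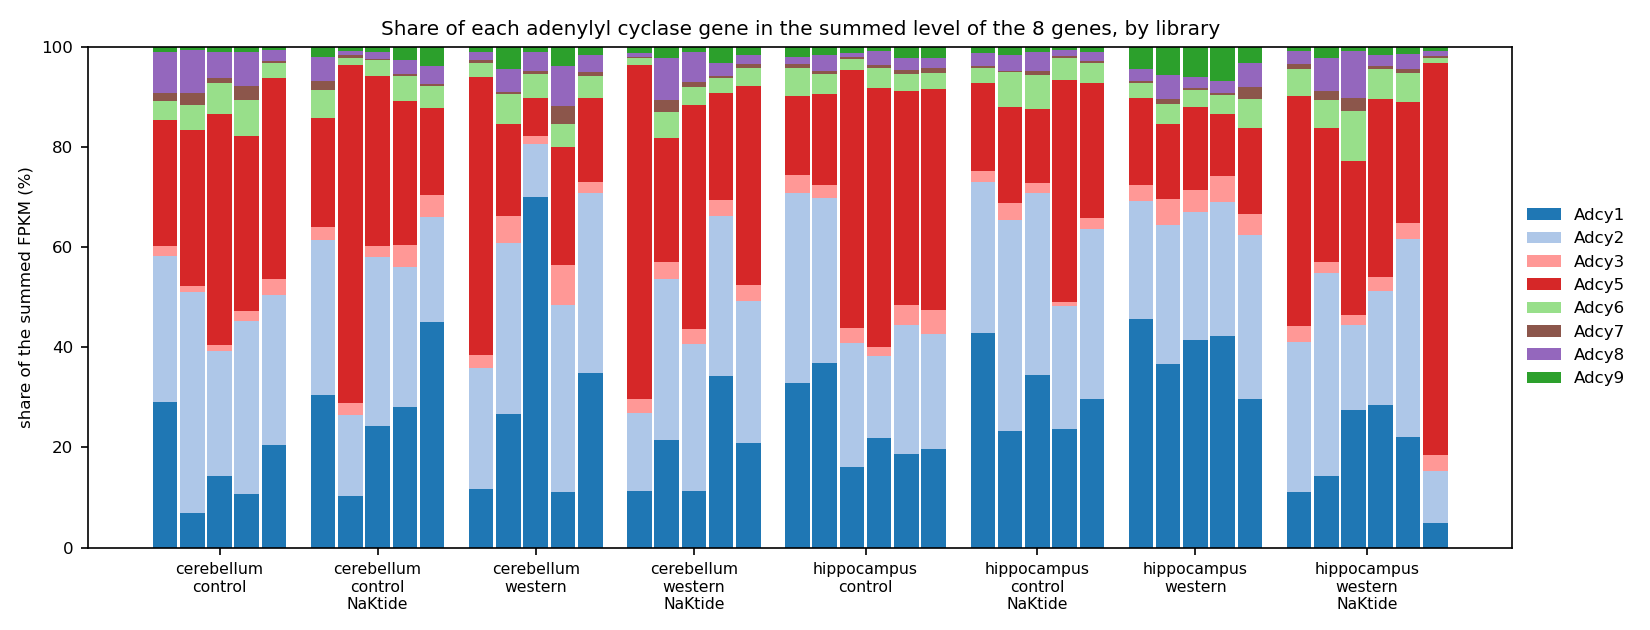
Share of each of the 8 adenylyl cyclase genes in their summed FPKM (y axis, percent), with 1 bar per library in replicate order within the 8 groups (x axis). The share of Adcy5 runs from 7.56% to 78.3% of the sum and that of Adcy1 from 4.99% to 70.0%.

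The promoters of the members called in the comparison of NaKtide on western diet are printed for orientation, since these genes moved together or against each other there. RefSeq (build GRCm38.p6) gave windows from 250 bases before to 50 bases after a start site for 6 of the 8 members, 9 windows in all. Each window is written 5′ to 3′ on the strand of the gene, with the GC box (GGGCGG, either strand, overlapping matches kept) in capitals. They are Adcy1 at chr11:7063183-7063482 on the plus strand, Adcy3 at chr12:4133147-4133446 on the plus strand (the first of its 2 windows), Adcy5 at chr16:35154614-35154913 on the plus strand and Adcy9 at chr16:4420449-4420748 on the minus strand.
Adcy1: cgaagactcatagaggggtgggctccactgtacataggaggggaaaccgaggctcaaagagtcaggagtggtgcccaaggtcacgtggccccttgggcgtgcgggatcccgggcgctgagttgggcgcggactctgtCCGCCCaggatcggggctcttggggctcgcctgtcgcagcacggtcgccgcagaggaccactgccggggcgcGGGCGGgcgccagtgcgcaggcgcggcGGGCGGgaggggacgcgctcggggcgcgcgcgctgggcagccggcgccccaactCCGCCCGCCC
Adcy3: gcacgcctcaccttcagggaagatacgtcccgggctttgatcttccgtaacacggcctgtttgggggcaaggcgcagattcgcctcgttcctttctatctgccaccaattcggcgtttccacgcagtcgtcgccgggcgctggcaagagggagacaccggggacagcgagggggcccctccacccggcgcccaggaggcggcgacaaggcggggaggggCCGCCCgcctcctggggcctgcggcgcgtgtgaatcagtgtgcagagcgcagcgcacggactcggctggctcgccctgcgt
Adcy5: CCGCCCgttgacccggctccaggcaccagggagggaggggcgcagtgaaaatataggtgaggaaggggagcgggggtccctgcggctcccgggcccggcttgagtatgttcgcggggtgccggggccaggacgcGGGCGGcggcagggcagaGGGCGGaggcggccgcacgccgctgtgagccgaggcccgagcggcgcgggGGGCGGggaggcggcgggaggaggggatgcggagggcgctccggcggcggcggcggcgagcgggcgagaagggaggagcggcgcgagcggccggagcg
Adcy9: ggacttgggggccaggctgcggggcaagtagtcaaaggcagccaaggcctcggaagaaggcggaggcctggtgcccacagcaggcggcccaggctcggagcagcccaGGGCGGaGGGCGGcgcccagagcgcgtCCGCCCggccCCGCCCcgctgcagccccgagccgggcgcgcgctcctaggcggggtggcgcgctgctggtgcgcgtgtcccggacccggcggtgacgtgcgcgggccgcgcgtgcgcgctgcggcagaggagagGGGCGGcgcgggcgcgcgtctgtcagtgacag
The GC box stood 5 times in the Adcy1 window, 1 time in that of Adcy3, 4 times in that of Adcy5 and 5 times in that of Adcy9. It is found in 35.7% of all 32851 RefSeq windows of this length. These windows were rich in G and C, at 74.0%, 68.7%, 79.0% and 78.3% against a median of 52.7% over all windows. Called and uncalled members were not set apart by this: the window of Adcy2, which was not called, had 75.0% and 3 GC boxes, while the second window of Adcy3 had 56.0% and 0. The full cyclic AMP response element TGACGTCA was in none of the 9 member windows and in 1.8% of all windows. Its 5-base core TGACG was in the window of Adcy9 and in 1 of the 3 windows of Adcy7, and in 20.8% of all. These are matches of letters, with no measurement of binding in these data.

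NaKtide on western diet was asked first, as the comparison in which the study's design sets the transgene against the diet. In libraries labelled hippocampus, 4 of the 8 cyclase genes passed the test: Adcy9, Adcy1 and Adcy3 were lower with NaKtide and Adcy5 was higher. Adcy2, Adcy6, Adcy7 and Adcy8 did not pass. A gene was called at a Benjamini-Hochberg adjusted p under 0.05 over all genes in edgeR's quasi-likelihood test on raw counts. This called 33.7% of all 16442 genes tested, so 4 of 8 (50%) is read against that share and is not called particular to the family. The median log2 fold change was -0.37 over the 8 members and 0.05 over all genes tested.

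Adcy9 had the largest change of the 8. Its levels on western diet without NaKtide were 4.15, 6.13, 7.97, 7.48 and 2.11 FPKM, and with NaKtide they ran from 0.509 through a median of 1.14 to 1.61 FPKM. The groups did not overlap, and even the lowest western library stood above all 6 with NaKtide. The share of all genes with groups apart is not given, here or in later comparisons, so this is a description only. The means were 1.02 ± 0.431 (SD, n = 6) and 5.57 ± 2.44 FPKM (SD, n = 5), a log2 fold change of -2.42 (SE 0.35, edgeR adjusted p = 0.000907). The call held in all 9 other settings (-2.51 to -2.30) and without any 1 of the 22 libraries (-2.63 to -2.27).

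Adcy1, stimulated by calcium and calmodulin, was the other clear fall. Western diet libraries stood at 42.9, 40.8, 56.0, 46.5 and 19.6 FPKM, and those with NaKtide ran from 7.04 through a median of 12.2 to 27.5 FPKM. The ranges overlapped through western 5, the lowest of its group, and all 6 NaKtide libraries lay under the western mean. The log2 fold change was -1.55 (SE 0.34, edgeR adjusted p = 0.00363), and it kept its call in all 9 other settings and without any 1 of the 22 libraries (-1.85 to -1.41).

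Adcy3, the cyclase of cilia, stood at 2.99, 5.67, 5.77, 5.75 and 2.77 FPKM on western diet. With NaKtide it ran from 1.13 through a median of 2.42 to 4.38 FPKM, so the ranges overlapped. The log2 fold change of -0.94 (SE 0.35) passed narrowly (edgeR adjusted p = 0.0416). The call was lost without hippocampus western 2, 3 or 4 or without western NaKtide 1, 2, 3, 4 or 5 (adjusted p from 0.0536 to 0.102), without the low count filter (0.0602) and with the trend in gene length taken out (log2 fold change -0.74, adjusted p = 0.0867). The centromere gene Cenpo shares 22.1% of the exon bases of Adcy3 on the opposite strand, at a median of 20 counts against 109.5 for Adcy3, and whether counting used the strand is not given in the sources used here.

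Adcy5, the striatal cyclase, was the 1 member called higher. It stood at 16.3, 16.6, 22.4, 13.7 and 11.4 FPKM on western diet and ran with NaKtide from 13.8 through a median of 26.3 to 110.3 FPKM. Western NaKtide 6 alone was at 110.3 FPKM and the next library was at 34.3. The log2 fold change was 1.25 (SE 0.48, edgeR adjusted p = 0.0482), above the western mean in 5 of 6 libraries. Without western NaKtide 6 it was 0.57 (adjusted p = 0.253). Leaving out 1 library at a time lost the call for 14 of the 22, and 6 of the 9 other settings lost it too. Among them was the replicate block (0.64, edgeR adjusted p = 0.238). The call was also lost without the hippocampus libraries that held Xist transcripts, control 5 and 6 and western NaKtide 6 (0.57, edgeR adjusted p = 0.280). Of these only western NaKtide 6 lies in a compared group, so that fit is close to the one without it. The fit with hippocampus control 5 and 6 summed lost it as well (1.25, edgeR adjusted p = 0.0542). As a further description, the striatum marker score of each library was added as a covariate. The log2 fold change of Adcy5 was then 0.05, that of Adcy9 -2.40, that of Adcy1 -1.38 and that of Adcy3 -1.16. Adcy5 had r of 0.96 with this score, so the covariate takes up most of its variation whatever the source. The part of striatal content in these changes was not tested.

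The other 4 members gave smaller differences. Adcy2 had means of 20.2 and 27.7 FPKM with and without NaKtide (log2 fold change -0.45, SE 0.24, edgeR adjusted p = 0.151). Adcy8 had means of 2.77 and 3.34 FPKM (-0.28, SE 0.33, adjusted p = 0.520). Adcy6 and Adcy7 stood within 0.15 of 0 on the log2 scale, with SE of 0.26 and 0.41. Their ranges overlapped in each case.

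**Figure D2:**
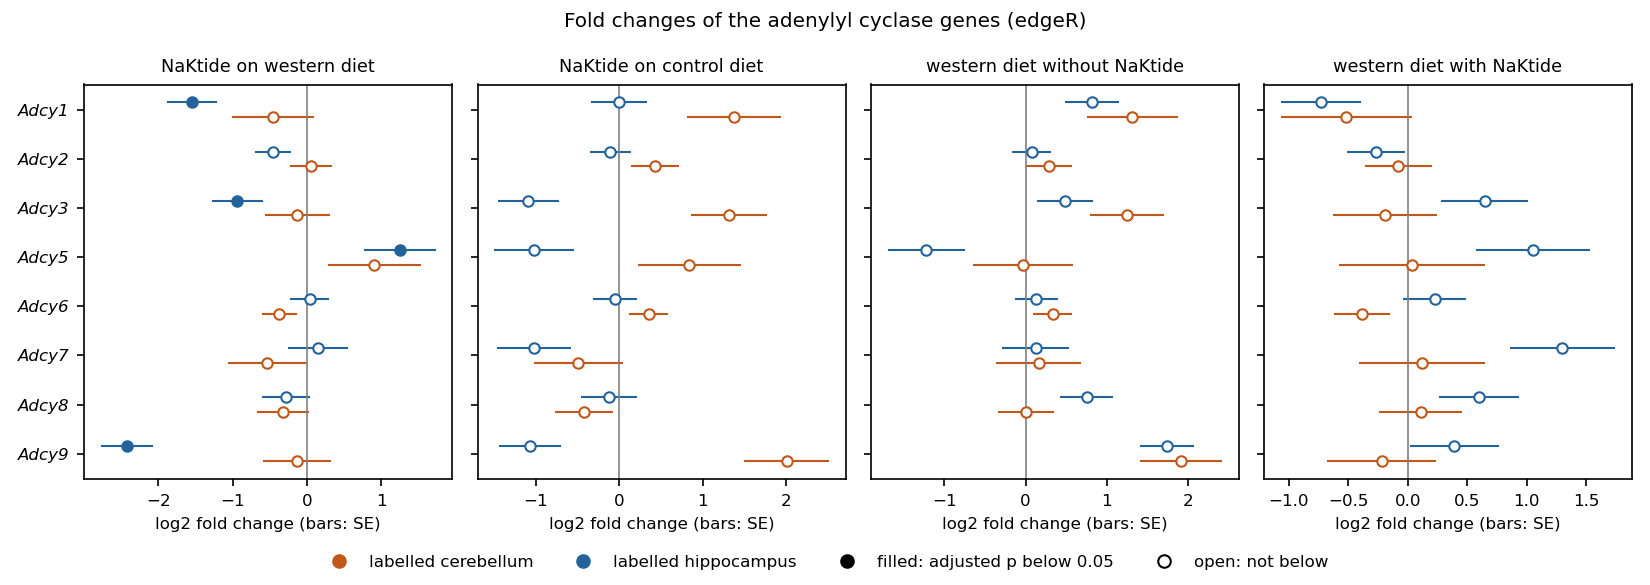
Log2 fold changes by edgeR (x axis, bars are SE) of the 8 adenylyl cyclase genes (y axis) in 4 comparisons, for libraries labelled cerebellum (orange) and hippocampus (blue). Filled points passed the test: Adcy1, Adcy3, Adcy5 and Adcy9 for NaKtide on western diet under the hippocampus label.

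Marker lists differed in the same comparison, in which 33.7% of all genes were called, and their part in the cyclase results was not tested. The striatum score, the mean log2(CPM + 1) of 10 markers without Adcy5, ran from 3.28 to 5.21 on western diet and from 4.28 to 8.35 with NaKtide, and 5 of its 10 markers were called higher and 0 lower. The pyramidal neuron score ran from 4.53 to 6.02 and from 1.85 to 4.82, with 0 of 10 higher and 2 lower. Markers of dentate granule cells gave 3.16 to 5.77 and 2.65 to 4.01, with 4 of 8 lower. Among glia, 5 of 8 astrocyte markers were lower and 6 of 10 microglia markers higher, 1 of 8 oligodendrocyte markers was higher, and 4 of 5 blood markers were higher. Purkinje cell markers gave 3 of 7 lower, cerebellar granule cell markers 2 of 5 lower and hypothalamus markers 2 of 7 higher. Hippocampus western 4 had the highest Purkinje (6.10) and cerebellar granule (5.04) scores of its group, against group medians of 3.87 and 2.74. None of the 10 striatum markers was at 0 counts in any library.

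The same comparison under the cerebellum label gave no call for the 8 members, and edgeR called 0% of 16338 genes there, with 679 at an unadjusted p under 0.05. Adcy9 stood at 0.902, 3.24, 0.760, 2.52 and 1.29 FPKM on western diet and at 1.62, 0.969, 0.580, 3.39 and 1.49 with NaKtide. Both groups spread over the same range (log2 fold change -0.13, SE 0.46, adjusted p = 1 by edgeR). Adcy5 was at 52.1, 13.6, 5.90, 15.4 and 12.6 FPKM and at 91.7, 10.6, 26.0, 22.9 and 38.7 FPKM with NaKtide (0.91, SE 0.62, adjusted p = 1 by edgeR). Western NaKtide 1 and western 1 were the high libraries of their groups. The difference between the labels was tested itself over all 42 libraries. Adcy9 passed, at -2.27 (SE 0.59, edgeR adjusted p = 0.0188), in a test that called 8.84% of 17088 genes. It was -1.81 (adjusted p = 0.0694) without cerebellum western NaKtide 4, the library with 3.39 FPKM, a fit that called 416 genes in place of 1510. Over the 42 fits with 1 library left out, the count over all genes ran from 416 to 4089. Of the other 7 members none passed, and Adcy1 was nearest (-1.07, SE 0.66, adjusted p = 0.271).

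The western diet without NaKtide was compared with the control diet to ask what the diet does on its own. EdgeR called 0% of genes under the hippocampus label (4046 at an unadjusted p under 0.05) and 0.00612%, 1 gene, under the cerebellum label, and no cyclase gene in either. Adcy9 came nearest. Under the hippocampus label it ran on control diet from 0.675 through a median of 1.69 to 2.37 FPKM, against the western values given above. All 5 western libraries lay above the control mean, and the ranges overlapped at western 5 (log2 fold change 1.74, SE 0.34, edgeR adjusted p = 0.0602). DESeq2 called it (adjusted p = 0.000799). EdgeR did so without the libraries of this label that held Xist transcripts, control 5 and 6 and western NaKtide 6 (2.05, adjusted p = 0.00925). Those fits called 825 and 2209 genes in all, in place of 0. Adcy9 was also called with hippocampus control 5 and 6 summed (1.84, edgeR adjusted p = 0.0486), in a fit that called 39 genes. Adcy5 went the other way, from a mean of 36.9 ± 17.9 (SD, n = 6) on control to 16.1 ± 4.13 FPKM (SD, n = 5) on western diet, and did not pass (-1.22, SE 0.48, adjusted p = 0.137 by edgeR). The striatum score had a median of 6.90 in those control libraries and of 4.04 in those western libraries.

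Cerebellum control libraries had the lowest Adcy9, at 0.468, 0.269, 0.572, 0.427 and 0.582 FPKM. Every cerebellum western library stood above them, and the log2 fold change was 1.91 (SE 0.51, adjusted p = 0.160 by edgeR and 0.0327 by DESeq2). Adcy1 and Adcy3 were also higher on the western diet without passing, at 1.31 (SE 0.56) and 1.25 (SE 0.45). Markers differed between these groups as well, with a median log2 fold change of 2.02 over 8 Purkinje cell markers, -1.57 over 8 monoamine neuron markers and -0.81 over 8 oligodendrocyte markers, none of them called. Cerebellum western 3, with the highest Adcy1 of its group (54.6 FPKM), also had the highest Purkinje score (8.57 against a group median of 3.75). Their part in the result was not tested. The difference between labels of this diet effect was called for 0% of genes by edgeR (907 at an unadjusted p under 0.05), and for Adcy9 it was -0.18 (SE 0.60, adjusted p = 0.992).

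NaKtide on control diet gave opposite signs under the labels for several members, none of them called. The test called 0.00612% of genes under the cerebellum label and 0% under the hippocampus label (4816 and 2720 at an unadjusted p under 0.05). Adcy9 in cerebellum control NaKtide libraries was 1.34, 1.14, 0.930, 2.34 and 3.57 FPKM, all above the 5 control libraries (log2 fold change 2.01, SE 0.51, edgeR adjusted p = 0.0908). Adcy3 (1.31, SE 0.45) and Adcy1 (1.38, SE 0.56) were higher there too. Under the hippocampus label Adcy9 (-1.07, SE 0.37), Adcy3 (-1.09, SE 0.37), Adcy7 (-1.03, SE 0.44) and Adcy5 (-1.02, SE 0.48) were lower, at edgeR adjusted p of 0.210, 0.210, 0.260 and 0.289. Whether the effect differs between the labels was not tested for this contrast. Leaving out cerebellum control 5, which held the highest Adcy1, Adcy2, Adcy3, Adcy5 and Adcy9 of its group, brought Adcy1 (1.73, adjusted p = 0.0407), Adcy3 (1.94, 0.0142) and Adcy9 (2.11, 0.0186) past the threshold, in a fit that called 4386 genes in all in place of 1. Beside these differences, the median log2 fold change under the cerebellum label was 1.18 over 10 striatum markers, -3.49 over 8 monoamine neuron markers and -1.30 over 8 oligodendrocyte markers, and under the hippocampus label -1.39 over the striatum markers. Their part was not tested.

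Within NaKtide mice the diets were compared last. EdgeR called 0% of genes under either label (1756 at an unadjusted p under 0.05 for hippocampus, 396 for cerebellum). Adcy7, a cyclase responsive to beta-gamma subunits, stood at 0.342, 0.171, 0.374, 0.297 and 0.441 FPKM on control diet under the hippocampus label. On western diet it ran from 0.552 through a median of 0.681 to 1.60 FPKM. The groups did not overlap, and the difference did not pass (1.30, SE 0.44, edgeR adjusted p = 0.377). The interaction of diet and NaKtide was called for 0% of genes under the hippocampus label (2399 at an unadjusted p under 0.05) and 0.00612% under the cerebellum label. The largest interaction terms of members were Adcy5 at 2.28 (SE 0.68, edgeR adjusted p = 0.165) for hippocampus and Adcy9 at -2.14 (SE 0.68, edgeR adjusted p = 0.251) for cerebellum. DESeq2 called the former (adjusted p = 0.0463).

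Over all 4 groups of each label, the hippocampus label differed from the cerebellum label in 0.0468% of 17088 genes, and in none of the 8 cyclases. Adcy6 had the smallest unadjusted p of the 8 (log2 difference 0.32, SE 0.13, edgeR adjusted p = 0.296). Adcy5 differed by -0.13 (SE 0.28) and Adcy1 by 0.39 (SE 0.23).

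Levels over the 8 groups are given next by role, as means ± SD with n of 5 or 6. Among the calcium-stimulated members, Adcy1 was highest in hippocampus western libraries (41.2 ± 13.4 FPKM), above the next group by more than the larger SD. It followed with 25.1 ± 10.6 in cerebellum control NaKtide, 23.8 ± 18.8 in cerebellum western, 23.0 ± 6.32 in hippocampus control, 22.8 ± 9.28 in hippocampus control NaKtide, 17.6 ± 11.8 in cerebellum western NaKtide, 14.1 ± 8.16 in hippocampus western NaKtide and 9.69 ± 6.34 in cerebellum control. None of these later neighbours differed by more than the larger SD. Adcy8 stayed between 1.77 ± 0.595 FPKM in hippocampus control NaKtide and 3.34 ± 1.25 in hippocampus western. Adcy3 ran from 1.22 ± 0.953 in cerebellum control (0.807 without control 5) and 1.48 ± 0.603 in hippocampus control NaKtide to 4.59 ± 1.56 FPKM in hippocampus western.

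Of the members responsive to beta-gamma subunits, Adcy2 was the steadiest of the 8, with a coefficient of variation of 29.2% over the libraries. Its group means lay between 17.96 ± 4.93 FPKM in cerebellum control and 27.7 ± 5.59 in hippocampus western. Adcy7 had its lowest mean in hippocampus control NaKtide (0.325 ± 0.101) and its highest in cerebellum western (0.883 ± 0.887 FPKM), where western 4 alone was at 2.46 FPKM and the mean without it was 0.488. Between the calcium-inhibited members, Adcy5 had its 4 highest means in hippocampus western NaKtide (38.2 ± 36.3), cerebellum western NaKtide (38.0 ± 31.6), cerebellum control NaKtide (36.9 ± 33.8) and hippocampus control (36.9 ± 17.9). Below them were cerebellum control (20.7 ± 9.71), cerebellum western (19.9 ± 18.3), hippocampus control NaKtide (18.1 ± 9.33) and hippocampus western (16.1 ± 4.13 FPKM). No neighbours in this order differed by more than the larger SD. The order rests in part on single libraries: without their highest library the means were 23.8 in hippocampus western NaKtide, 24.5 in cerebellum western NaKtide, 22.1 in cerebellum control NaKtide and 11.9 FPKM in cerebellum western. Adcy6 moved little, from 2.64 ± 0.755 in cerebellum western NaKtide to 4.00 ± 0.698 in hippocampus western and 4.14 ± 1.75 FPKM in hippocampus western NaKtide.

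Adcy9 varied most among the 8, with a coefficient of variation of 98.6% and a ratio of 29.7 between its highest and lowest library. After hippocampus western (5.57 ± 2.44) came cerebellum control NaKtide (1.86 ± 1.10), cerebellum western (1.74 ± 1.09), hippocampus control (1.64 ± 0.652), cerebellum western NaKtide (1.61 ± 1.08), hippocampus western NaKtide (1.02 ± 0.431), hippocampus control NaKtide (0.763 ± 0.225) and cerebellum control (0.463 ± 0.128 FPKM). The steps after the first group and before the last were larger than the larger SD. Over all 8 genes, 53 of 56 neighbouring steps were within it.

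**Figure D3:**
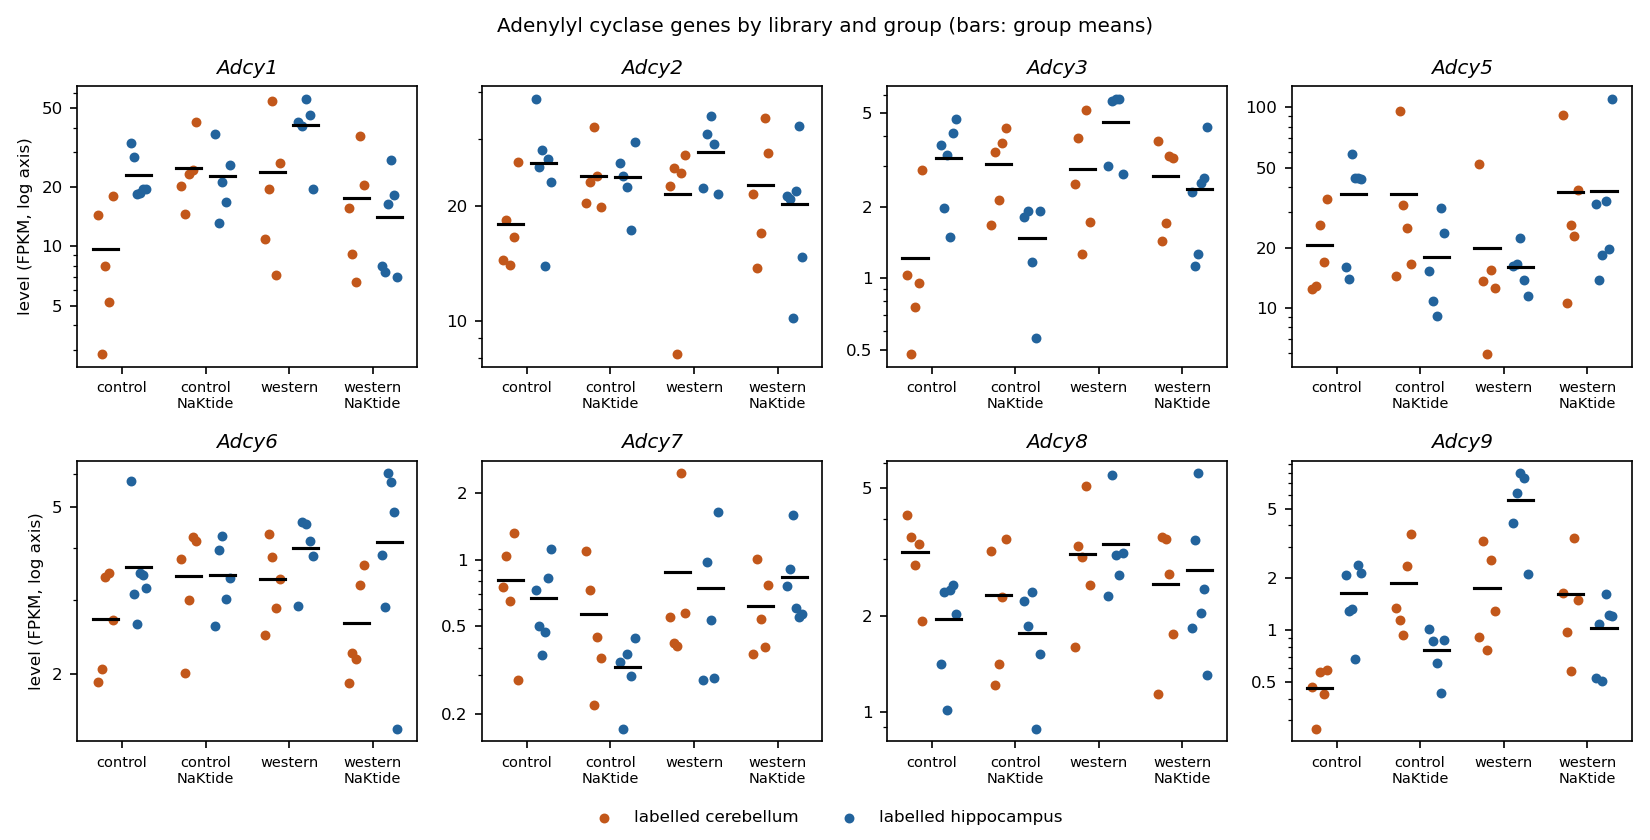
FPKM (y axis, log scale) of the 8 adenylyl cyclase genes by group (x axis), with 1 point per library, orange for the cerebellum label and blue for the hippocampus label, and bars at group means. Adcy9 has its highest mean in hippocampus western libraries (2.11 to 7.97 FPKM), whose range overlaps that of the next group. Adcy5 spreads up to 110.3 FPKM within single groups.

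The libraries were then set against their striatal content. Adcy5 followed it closely: the Pearson r between its log2(CPM + 1) and the striatum score was 0.96 over the 42 libraries (Spearman rho 0.96) and 0.95 without the 2 libraries farthest from the median score, hippocampus western NaKtide 6 and cerebellum control NaKtide 2. It was 0.98 over the 20 libraries labelled cerebellum and 0.94 over the 22 labelled hippocampus. The slope was 0.59 log2 units per unit of score. Deviations from group means gave 0.95, so the relation was present among libraries of the same diet and treatment. All points share the depth and scaling of their library.

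Adcy8 ran against the striatum score, with r of -0.68 over all libraries (rho -0.61, and -0.63 without the 2 farthest), -0.86 under the cerebellum label and -0.54 under the hippocampus label. Deviations from group means gave -0.73. Adcy6 was at -0.36 over all and -0.20 without the 2 farthest libraries, so part of it rested on them. Adcy3 (0.25), Adcy2 (0.11), Adcy9 (-0.09), Adcy7 (-0.14) and Adcy1 (-0.16) were weak over the 42 libraries. Adcy2 had opposite signs under the labels, 0.50 for cerebellum and -0.30 for hippocampus.

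**Figure D4:**
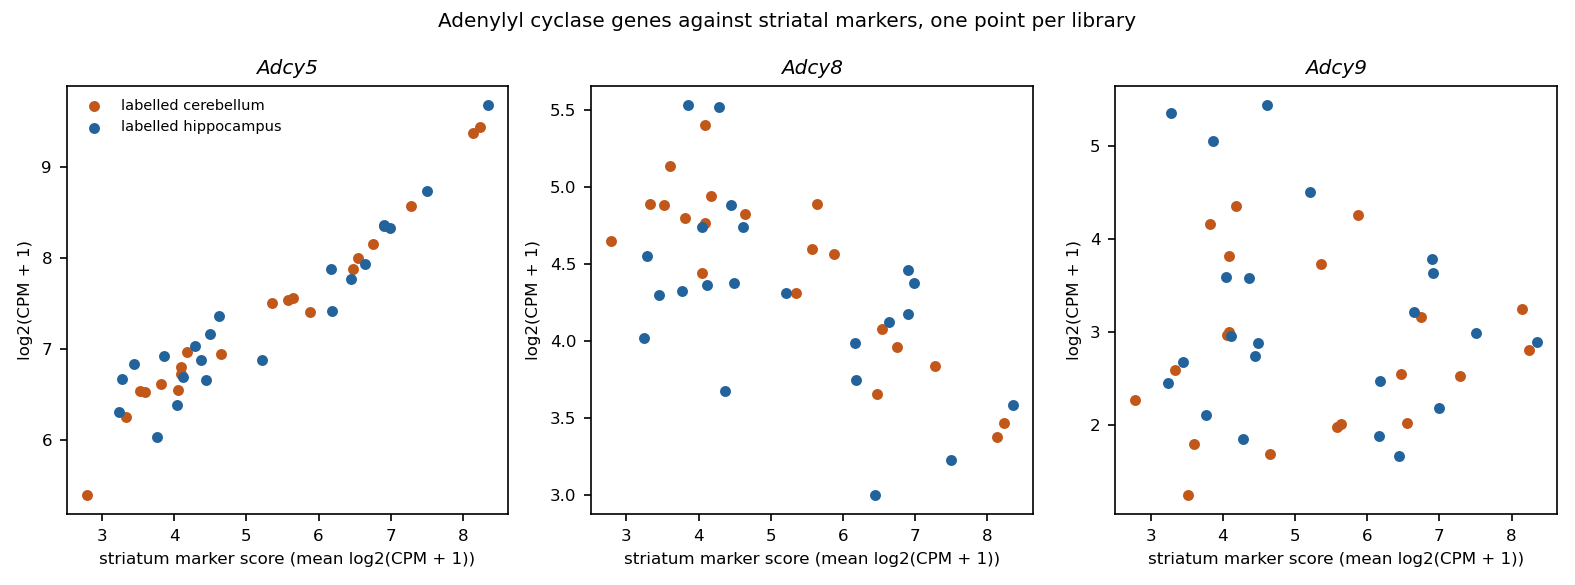
Log2(CPM + 1) of Adcy5, Adcy8 and Adcy9 (y axes) against the striatum marker score (x axis, mean log2(CPM + 1) of 10 markers), with 1 point per library in orange (cerebellum label) or blue (hippocampus label). Adcy5 rises with the score (r = 0.96), Adcy8 falls (r = -0.68) and Adcy9 shows no trend (r = -0.09).

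Other marker scores picked out other members, again as descriptions over 42 libraries. Adcy2 was most like the pyramidal neuron score (r = 0.79, and 0.75 for deviations from group means). Adcy1 (0.61), Adcy9 (0.55) and Adcy3 (0.52) were also positive with it. Adcy1 ran against the score of midbrain and hindbrain monoamine neurons (-0.65), with which Adcy7 was positive (0.51). Adcy7 was also negative with the pyramidal neuron score (-0.54) and positive with the thalamus score (0.52). Adcy8 was positive with astrocyte markers (0.57), and Adcy3 was negative with pituitary (-0.69) and oligodendrocyte markers (-0.58). Blood markers were negative with Adcy1 (-0.59), Adcy3 (-0.56), Adcy9 (-0.55), Adcy2 (-0.54), Adcy5 (-0.40) and Adcy6 (-0.38). They were positive with Adcy8 (0.36) and Adcy7 (0.30). Adcy5 was also positive with microglia markers (0.64).

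**Figure D5:**
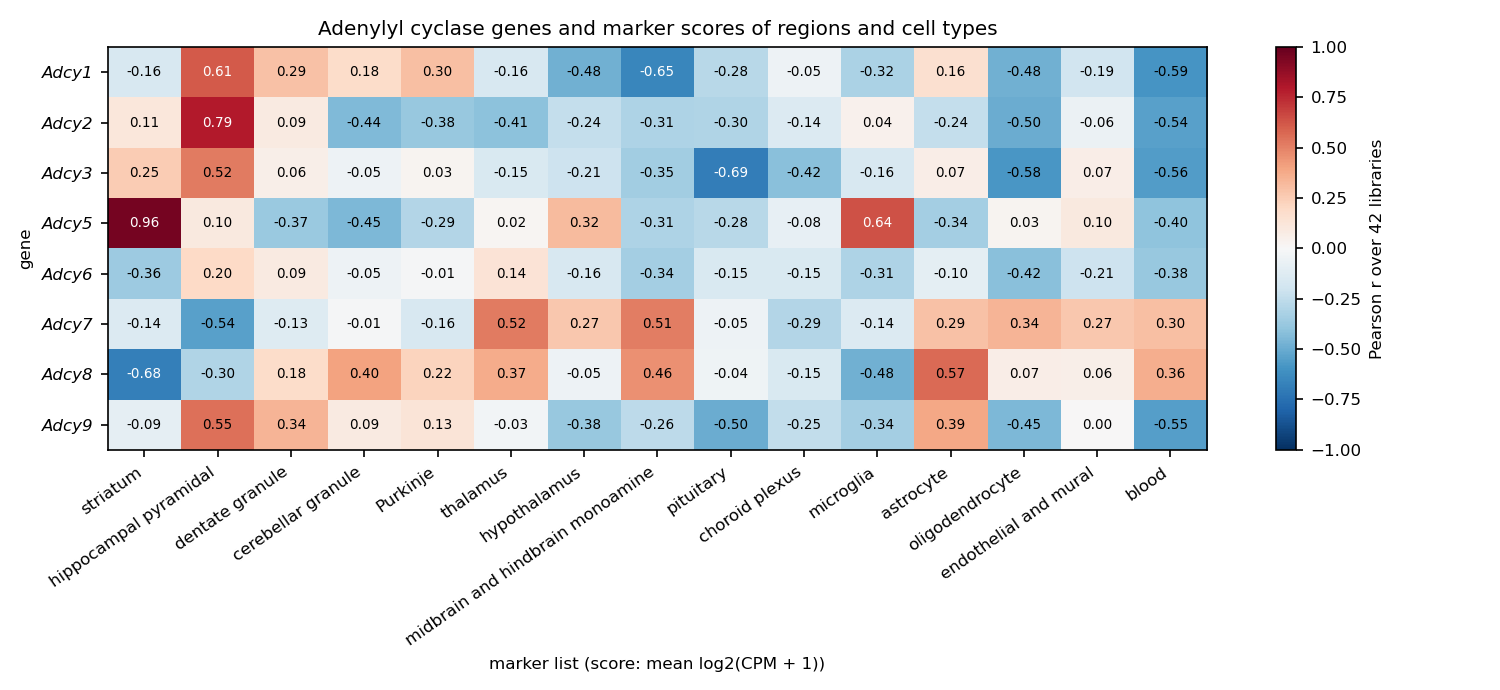
Pearson r over 42 libraries (colour and printed value) between log2(CPM + 1) of each adenylyl cyclase gene (y axis) and the score of each marker list (x axis, mean log2(CPM + 1)). The strongest cell is Adcy5 with striatum (0.96), followed by Adcy2 with pyramidal neurons (0.79).

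Among the 28 pairs of members, Adcy3 and Adcy9 were most alike (r = 0.83 over 42 libraries, 0.84 and 0.82 within the labels), followed by Adcy1 with Adcy9 (0.64) and Adcy2 with Adcy3 (0.59). Adcy5 and Adcy8 were the most opposed pair (-0.62). Of 13946 genes with a symbol and a mean of at least 1 CPM, those most like Adcy5 were Rasd2, Gpr6 and Pde1b, each with r of 0.95. For Adcy9 they were Pcdhac2 (0.94), Gse1 (0.94) and Pcnx (0.93), and for Adcy3 Atg9a (0.94), Kif3c (0.94) and Wdr48 (0.93). Adcy2 was most like Chrm3 (0.92), Acsl5 (0.91) and Extl1 (0.89), and Adcy1 most like Zbtb18 (0.88), Spata2 (0.86) and Syne1 (0.85). The nearest genes to Adcy6 were Nav2 (0.86), Yeats2 (0.83) and Grk3 (0.82). Lower values were found for Adcy7, with Slc6a11 (0.81), Nap1l5 (0.79) and Mthfd2l (0.78), and for Adcy8, with Atp13a4 (0.78), Atp1b2 (0.78) and Btbd11 (0.77).

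The rest of the cyclic AMP pathway was counted in NaKtide on western diet under the hippocampus label, beside the same 33.7% of all genes called. Upstream, 4 of 17 G protein genes were higher and 3 lower, among them the gamma subunit Gng2 (-1.50, SE 0.23, edgeR adjusted p = 0.00106) and the inhibitory alpha subunit Gnai3 (-0.60, SE 0.14, 0.00438). Receptors coupled to Gs gave 1 higher and 2 lower of 17 tested, with the dopamine receptor Drd5 at -1.73 (SE 0.39, adjusted p = 0.00408 by edgeR) and the serotonin receptor Htr4 at -2.62 (SE 0.73, 0.0105). Of 24 receptors coupled to Gi, 1 was higher and 9 were lower, including the serotonin receptor Htr1a, from 4.56 to 1.46 FPKM, and the glutamate receptor Grm7, from 5.94 to 3.11 FPKM. Calcium inputs such as calmodulin and calcineurin gave 0 higher and 4 lower of 10, with the calcineurin subunit Ppp3cb at -0.92 (SE 0.20) and the kinase Prkca at -1.28 (SE 0.32).

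Downstream, 2 of 16 phosphodiesterases, which degrade cyclic AMP or cyclic GMP, were higher and 3 lower, with Pde3a (-1.33, SE 0.38) and Pde4d (-1.18, SE 0.37) named by smallest p. Protein kinase A genes gave 1 higher and 4 lower of 9: the inhibitor Pkia was at -1.05 (SE 0.23) and the regulatory subunit Prkar1a at -0.58 (SE 0.14). Other effectors gave 3 higher and 2 lower of 17, among them the transcription factor Creb1 (-0.86, SE 0.16). Anchoring proteins of the kinase gave 0 higher and 3 lower of 10, with Akap10 at -0.69 (SE 0.15) and Akap11 at -1.24 (SE 0.28). The called share ran from 17.6% for receptors coupled to Gs to 55.6% for protein kinase A genes, on both sides of the background. The lists share genes with the striatum markers, of which 5 of 10 were called higher. Among the shared genes were the adenosine receptor Adora2a (26.3 against 2.68 FPKM with and without NaKtide) and the phosphatase inhibitor Ppp1r1b (199 against 40.5 FPKM). Both were called higher and chosen for mention after their values were seen. Single libraries weigh on such means: under the hippocampus label Adora2a had a median of 14.8 CPM and a highest of 336, and Ppp1r1b 214 and 1851. In the other comparisons within a label edgeR called 0 genes of these lists. In the difference between labels of NaKtide on western diet, with 8.84% of all genes called, the lists held 11 called genes of 121 tested (9.09%), a share near that background. They included Crtc2, a coactivator of CREB (1.24, SE 0.32), Creb1 (-1.01, SE 0.27), Gnai1 (-1.08, SE 0.29), Pkia (-1.34, SE 0.40) and the opioid receptor Oprd1 (-2.82, SE 0.77).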

How the data were processed

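RNA from 42 mouse brain libraries was sequenced after a stranded mRNA library preparation, per the labels' protocols. The authors deposited raw counts per gene, normalized counts (a signal, the counts divided by 1 size factor per library) and FPKM, all on build GRCm38, with HISAT2 2.1.0, Trimmomatic 0.38 and DESeq2 1.20.0 listed per the submitters' processing notes. The tool that counted reads, and its annotation, is not given in the sources used here. Tests used the deposited counts, and levels used the FPKM as the authors deposited them. Of 54232 gene IDs, 54079 matched a symbol.

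Groups follow the labels. Counts were tested with edgeR 4.0.16 (R 4.3.3, TMM scaling, filterByExpr, quasi-likelihood F test, Benjamini-Hochberg adjustment over all genes tested, threshold 0.05). The 4 groups of a label were fitted together, and all 42 libraries were fitted together for comparisons across labels. SE was taken as the absolute log2 fold change divided by the root of the F statistic. Marker scores and correlations used log2(CPM + 1), with TMM scaling over all 42 libraries. The outcome on simulated counts with 200 changed genes was checked for NaKtide on western diet. Under the hippocampus label (16442 genes), 98% of 4-fold and 71% of 2-fold changes were recovered, and 4% of calls were false. Under the cerebellum label these were 95%, 61% and 3.1%. The simulated libraries were drawn independently, without differences in tissue content, so this does not measure how reliable the calls in the real libraries are.

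Alternatives were DESeq2 1.42.0, its size factors in edgeR, no filter on low counts, a replicate block, the striatum score as a covariate, the trend in gene length taken out, only the compared groups, without libraries holding Xist, hippocampus control 5 and 6 summed, and each library left out. Pathway genes were named as up to 2 with the smallest adjusted p among those called in each list and comparison, and for each member the 3 genes with the highest r. A gene that this rule names is not reported here. The members and the lists were chosen with earlier results of these data known.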

Additional observations from a re-analysis of the deposited data

Results flagged for a closer look

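In 64 combinations of a gene and a group of 5 or 6 libraries, the highest or lowest library was compared with its nearest neighbour relative to the range of the group (Dixon's test). For normally distributed values chance flags about 1 in 20 groups, and 9 of the 64 were flagged. FPKM need not be normal within a group, and the 8 genes share their libraries, so this count is not read as an excess. Adcy5 accounted for 3 of them: cerebellum control NaKtide 2 at 96.1 FPKM (next 32.5), cerebellum western 1 at 52.1 FPKM (next 15.4) and hippocampus western NaKtide 6 at 110.3 FPKM (next 34.3). Adcy7 stood out in cerebellum western 4 at 2.46 FPKM and in hippocampus western NaKtide 3 at 1.60 FPKM. Adcy2 was low in cerebellum western 3 at 8.19 FPKM, where the next library had 22.6. Adcy3 was high in cerebellum control 5 at 2.88 FPKM (next 1.04), Adcy6 in hippocampus control 1 at 5.76 FPKM and Adcy8 in hippocampus western 2 at 5.50 FPKM. What sets these libraries apart was not tested.

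The change of Adcy9 with NaKtide on western diet differed between the labels, at -2.27 on the log2 scale (SE 0.59, adjusted p = 0.0188 by edgeR over all 42 libraries).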

How the results depend on the processing

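No log2 fold change of a member that was called reversed its sign under any alternative run. For NaKtide on western diet under the hippocampus label, the count of called members was 4. It stayed at 4 with DESeq2 and with its size factors in edgeR, and was 2 without the low count filter. It was 3 with a replicate block, with the striatum score as a covariate and with the trend in gene length taken out. The count was also 3 without the libraries with Xist, with hippocampus control 5 and 6 summed and with only the compared groups. With 1 library left out the count ran from 2 to 4. For western diet without NaKtide under that label it was 0, and 0 to 1 with 1 library left out. It was 1 (Adcy9) with DESeq2, without the low count filter, without the libraries with Xist and with hippocampus control 5 and 6 summed. DESeq2 also gave 1 in place of 0 for the interaction under the hippocampus label (Adcy5), and for NaKtide on control diet and western diet without NaKtide under the cerebellum label (Adcy9 in both). With 1 library left out, these last counts ran from 0 to 3 and from 0 to 2, and the difference between labels from 0 to 1. Same-numbered libraries of different groups had a median correlation of deviations of -0.10 (hippocampus), -0.05 (cerebellum) and -0.01 (hippocampus with cerebellum). Single pairs ran from -0.65 to 0.66. A median over pooled pairs cannot decide whether the numbers mark libraries of the same animal. The replicate block moved the count over all genes from 5542 to 5221, and for the difference between labels from 1510 to 2324. DESeq2 called 1198 genes for NaKtide on control diet under the cerebellum label, 154 for its western diet, 825 for hippocampus western diet, 182 for the hippocampus interaction and 30 for western diet with NaKtide there. Adcy7 and Adcy9 had 7 counts in their lowest libraries, while the largest SE for NaKtide on western diet was that of Adcy5 (0.48 hippocampus, 0.62 cerebellum).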
